A study of Mus musculus with 12 samples.

Results

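The transcripts described here are those of 37 genes known chiefly from T cells and natural killer (NK) cells, measured by bulk RNA-seq in tumor-associated macrophages (TAMs). They were matched by symbol, by a rule that uses no measured value, from a list drawn up with earlier results of these data known, and fall into 19 T cell genes and 18 NK cell and cytotoxic genes. They are 37 of the 55401 genes listed in each count table, and each of the 37 symbols was on a single row.

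TAMs were sorted from subcutaneous tumors of the mouse melanoma line B16-F10, by the study's methods as CD45+CD11b+Ly6C-Ly6G-F4/80+ cells. Legends of its supplementary figures print Ly6C+ instead, and a legend prints Ly6G+ as well. The sources used here name no T, NK or B cell marker that was gated out. The first comparison set 3 AMPK-KO samples (AMPKfl/flLyz2cre/cre) against 3 WT samples (AMPKfl/fl, given as littermate controls with no cre in the label), both taken on day 15. AMPK is the energy-sensing kinase, the cre is driven from the myeloid gene Lyz2, and both groups carried the floxed allele and were untreated. The genotype labels of AMPK-KO replicates 2 and 3 read Lyz3cre and Lyz4cre where their titles read Lyz2cre. In the second comparison, TAMs of late-stage tumors on day 15 were read against those of early-stage tumors on day 8, with 3 samples each, all labelled WT and untreated. Mice were 5 weeks old by the study's methods, which name female C57BL/6 animals for the tumor grafts. Nothing states whether the samples of a group came from separate animals or pools, so p-values measure only the spread between these samples.

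T cells recognize peptides on MHC molecules through the T cell receptor, whose alpha and beta chains signal through the CD3 chains and the kinase Lck. CD8 T cells and NK cells kill targets with perforin and granzymes, and NK cells balance activating and inhibitory receptors, many of them of the Klr family, to do so. In tumors both cell types are found beside macrophages, which present antigen to T cells and make cytokines that act on both.

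Each library held between 71019494 and 84470374 counts, of which the 37 genes took between 0.0419% and 0.0922%. Prkaa1, which encodes the AMPK alpha1 subunit, was at 65.0 ± 3.34 counts per 1000000 (CPM, SD, n = 3) in WT and 42.9 ± 3.53 CPM in AMPK-KO, a log2 fold change of -0.60 ± 0.07 (SE). Its adjusted p was 2.3e-04 in the quasi-likelihood test of edgeR, and which of its exons were deleted was not used here. Lyz2, a defining macrophage gene and the driver of the cre, had between 671 and 975 counts in WT and between 676 and 1088 in AMPK-KO, against at least 88212 in every early-stage and late-stage library. Its ranges in WT and AMPK-KO overlapped (log2 fold change 0.07 ± 0.18, adjusted p = 0.830), so by Lyz2 these WT libraries were near the cre-bearing group and far below the other libraries labelled WT. Adgre1, which encodes F4/80, had between 61860 and 78970 counts in the WT and AMPK-KO libraries, and Ly6g was listed at 0 in all of them. Counts of 4 genes of the Y chromosome together came to 9229 to 11360 in WT, 11299 to 12183 in AMPK-KO, 3435 to 4035 in early-stage and 0 to 4 in late-stage libraries, so that 9 of the 12 libraries held at least 3435 although the methods name female animals. Stage and this difference cannot be told apart.

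Both groups of transcripts were higher in AMPK-KO than in WT TAMs, and the NK cell and cytotoxic group was raised more. The 19 T cell genes summed to 229, 259 and 245 CPM in the WT samples and to 405, 404 and 415 CPM in the AMPK-KO samples, a ratio of group means of 1.67. The 18 NK cell and cytotoxic genes summed to 184, 201 and 193 CPM in WT and to 512, 505 and 509 CPM in AMPK-KO, a ratio of 2.64. In either sum every AMPK-KO sample lay above every WT sample. In these bulk samples, more cells of a type and more RNA per cell cannot be told apart.

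With tumor stage the groups of transcripts moved in opposite directions. The T cell sum was 414, 382 and 377 CPM in the early-stage samples and 483, 553 and 541 CPM in the late-stage samples, a ratio of 1.34. The NK cell and cytotoxic sum was 391, 377 and 409 CPM early and 243, 285 and 284 CPM late, a ratio of 0.690. The ratio of the NK cell and cytotoxic sum to the T cell sum was therefore between 0.774 and 0.806 in WT, 1.23 and 1.26 in AMPK-KO, 0.944 and 1.09 in early-stage and 0.502 and 0.525 in late-stage samples. The ratio did not overlap between the groups of either comparison. The WT and late-stage samples were both labelled WT and taken on day 15. Their mean T cell sums were 245 and 526 CPM, and their NK cell and cytotoxic sums 193 and 271 CPM, in tables scaled separately. The mean T cell sum of AMPK-KO, 408 CPM, lay between those of WT and late-stage samples.

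**Figure D1:**
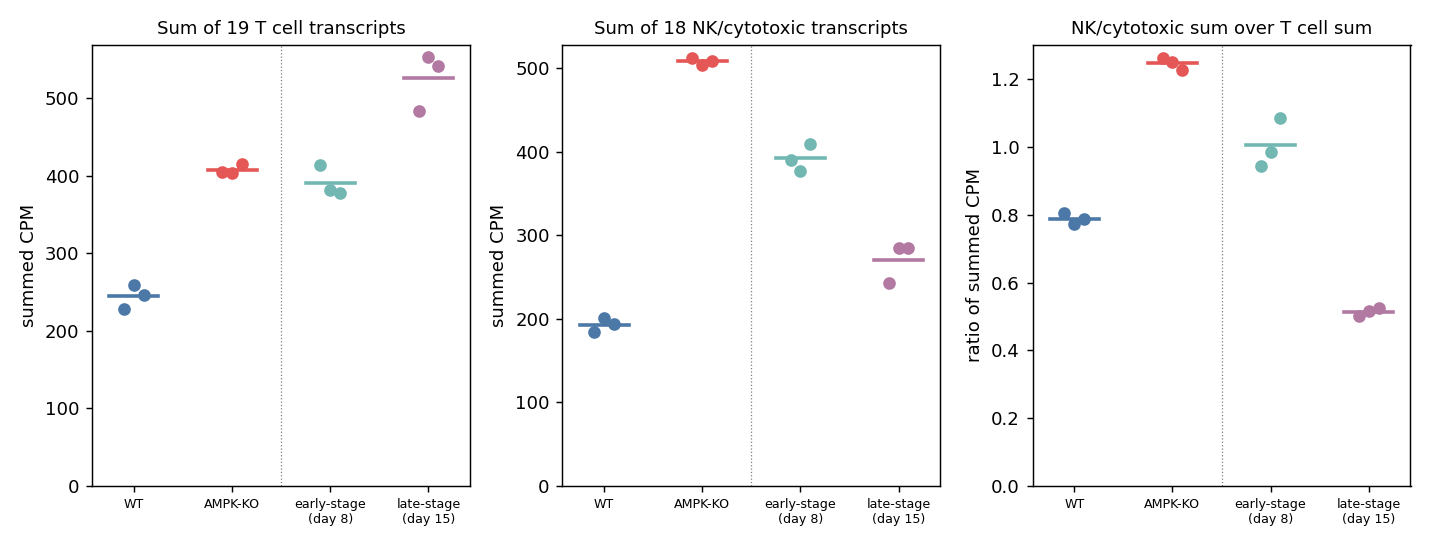
Summed CPM of the 19 T cell transcripts (left) and of the 18 NK cell and cytotoxic transcripts (middle), and the ratio of the latter sum to the former (right), for each of 3 samples in 4 groups; points are samples and lines are group means, and the dotted line parts the comparisons, whose tables were scaled separately. Both sums were higher in AMPK-KO, while late-stage samples had the higher T cell sum and the lower NK cell and cytotoxic sum.

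Of the 19 T cell genes, all tested, 17 were higher in AMPK-KO at an adjusted p under 0.05 and none was lower, where 11.3% of the 17532 genes tested were higher and 9.78% lower. Their median log2 fold change was 0.66, with a range from 0.26 to 1.40, against a median of -0.00 over all genes tested. A single T cell gene, Cd8a, passed a log2 fold change of 1 as well, as 2.05% of all genes tested did. Between WT and AMPK-KO, 18 of the 19 had groups that did not overlap, as had 18.8% of all genes in the higher direction. Since all 19 log2 fold changes were positive, the count of T cell genes lower was 0 in edgeR at any cutoff. It was also 0 by DESeq2 and by limma voom.

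Cd8a and Cd8b1 encode the chains of the CD8 coreceptor, which binds MHC class I. Cd8a (ENSMUSG00000053977.13, chr6:71373427-71379173, plus strand, GRCm38) was at 15.8, 18.1 and 19.1 CPM in WT and at 47.0, 47.1 and 45.2 CPM in AMPK-KO. It rose by a log2 fold change of 1.40 ± 0.08 (SE), with an adjusted p of 1.7e-06. Cd8b1 was at 8.90, 9.02 and 8.07 CPM in WT and at 15.4, 15.4 and 19.3 CPM in AMPK-KO, a log2 fold change of 0.95 ± 0.12 (adjusted p = 2.5e-04). For both genes the groups were fully apart. Cd4, the coreceptor for MHC class II, was at 19.7, 19.1 and 16.8 CPM in WT and at 25.3, 21.7 and 19.6 CPM in AMPK-KO. The lowest AMPK-KO sample lay below the highest WT sample, and the log2 fold change of 0.26 ± 0.11 did not pass the test (adjusted p = 0.128). Per kilobase of exon, the Cd4 to Cd8b1 ratio was between 0.766 and 0.815 in WT and between 0.375 and 0.604 in AMPK-KO, with no overlap. The Cd8a to Cd8b1 ratio overlapped only narrowly (0.722 to 0.964 against 0.957 to 1.24). The Cd8a to Cd3e ratio was between 1.53 and 2.04 in WT and between 2.75 and 3.10 in AMPK-KO, with no overlap. Cd4 is also transcribed in some mouse myeloid cells, and Cd8a without Cd8b1 in some dendritic cells. Of 11 dendritic cell markers 9 were higher in AMPK-KO and none lower, beside 11.3% and 9.78% of all genes tested. Among the higher were Xcr1 and Clec9a, by 1.02 and 1.38 on the log2 scale, named here after their values were seen. The part of dendritic cells in the Cd8a change was not tested.

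The genes of the T cell receptor and CD3 complex rose together. Trac, the constant region of the receptor's alpha chain, was at 12.8, 17.8 and 16.8 CPM in WT and at 30.3, 25.8 and 28.1 CPM in AMPK-KO, a log2 fold change of 0.83 ± 0.12 (adjusted p = 8.9e-04). Cd3e, a CD3 signaling chain, was at 10.7, 13.2 and 10.5 CPM in WT and at 17.0, 17.2 and 18.5 CPM in AMPK-KO, a log2 fold change of 0.62 ± 0.11 (adjusted p = 2.9e-03). Cd3g, another chain of the complex, was at 11.2, 14.9 and 13.2 CPM in WT and at 24.3, 24.0 and 24.9 CPM in AMPK-KO, a log2 fold change of 0.90 ± 0.11 (adjusted p = 2.1e-04). For all 3 genes every AMPK-KO sample was above every WT sample. Cd3d and Cd247, which encode the delta and zeta chains, rose by 0.66 and 0.69 on the log2 scale, and the beta chain constant regions Trbc1 and Trbc2 by 0.56 and 0.49.

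Trbc1 (ENSMUSG00000076490.6, chr6:41538218-41539881) and Trbc2 (ENSMUSG00000076498.2, chr6:41546730-41548352), both on the plus strand of GRCm38, are near-identical copies, so how their reads were split between them is uncertain. Their transcripts were the same over the first 259 bases and differed at 19 of the first 500, an identity of 96.2%. Of all stretches of 100 bases, 28.7% of Trbc1 and 30.9% of Trbc2 also lay in the other transcript. Bases 240 to 359 are shown because the first difference, in capitals, falls there (GENCODE M21, GRCm38):
Trbc1: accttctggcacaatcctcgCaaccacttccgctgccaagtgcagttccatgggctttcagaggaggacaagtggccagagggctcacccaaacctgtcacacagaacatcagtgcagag
Trbc2: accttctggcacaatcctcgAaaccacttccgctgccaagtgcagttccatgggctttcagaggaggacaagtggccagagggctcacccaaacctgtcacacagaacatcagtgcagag
Trbc2 stood at 1.32 to 1.68 times Trbc1 per kilobase in WT and at 1.22 to 1.56 times in AMPK-KO, and these ranges overlapped. The Cd247 exons share 3007 bases with Pou2f1 on the opposite strand, and the strand setting of the counting was not given in the sources used here.

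Surface receptors of T cells formed the next set. Thy1, a glycoprotein on T cells and also on some stromal cells, was at 31.5, 35.4 and 31.5 CPM in WT and at 60.5, 56.7 and 63.1 CPM in AMPK-KO, a log2 fold change of 0.87 ± 0.07 (adjusted p = 1.5e-05). Cd6, a receptor that tunes T cell receptor signaling, was at 10.4, 12.9 and 11.9 CPM in WT and at 21.5, 22.3 and 21.4 CPM in AMPK-KO, a log2 fold change of 0.89 ± 0.10 (adjusted p = 1.3e-04). Cd2, an adhesion receptor shared by T and NK cells, was at 11.2, 12.8 and 13.7 CPM in WT and at 20.5, 22.6 and 21.0 CPM in AMPK-KO, a log2 fold change of 0.77 ± 0.10 (adjusted p = 3.6e-04). The groups did not overlap for any of them. Cd28, the main costimulatory receptor, rose by 0.76 and Cd5, an inhibitory coreceptor, by 0.52 on the log2 scale.

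Among the intracellular signaling genes, Lck, the kinase next to the coreceptors, rose from 23.2 ± 1.46 to 33.5 ± 1.97 CPM (SD, n = 3), by 0.53 on the log2 scale. Txk, a Tec-family kinase, and Skap1, an adaptor, rose by 0.61 and 0.54 from WT means of 2.74 and 5.49 CPM. The call for Txk was lost when any of 4 libraries was left out in turn, that for Skap1 with any of 2, and that for Cd5 with 1. Lat, the adaptor that assembles the signaling complex, was at 10.4 ± 1.83 CPM in WT and 12.7 ± 0.256 CPM in AMPK-KO and did not pass the test (log2 fold change 0.30 ± 0.13, adjusted p = 0.148), although its groups did not overlap.

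**Figure D2:**
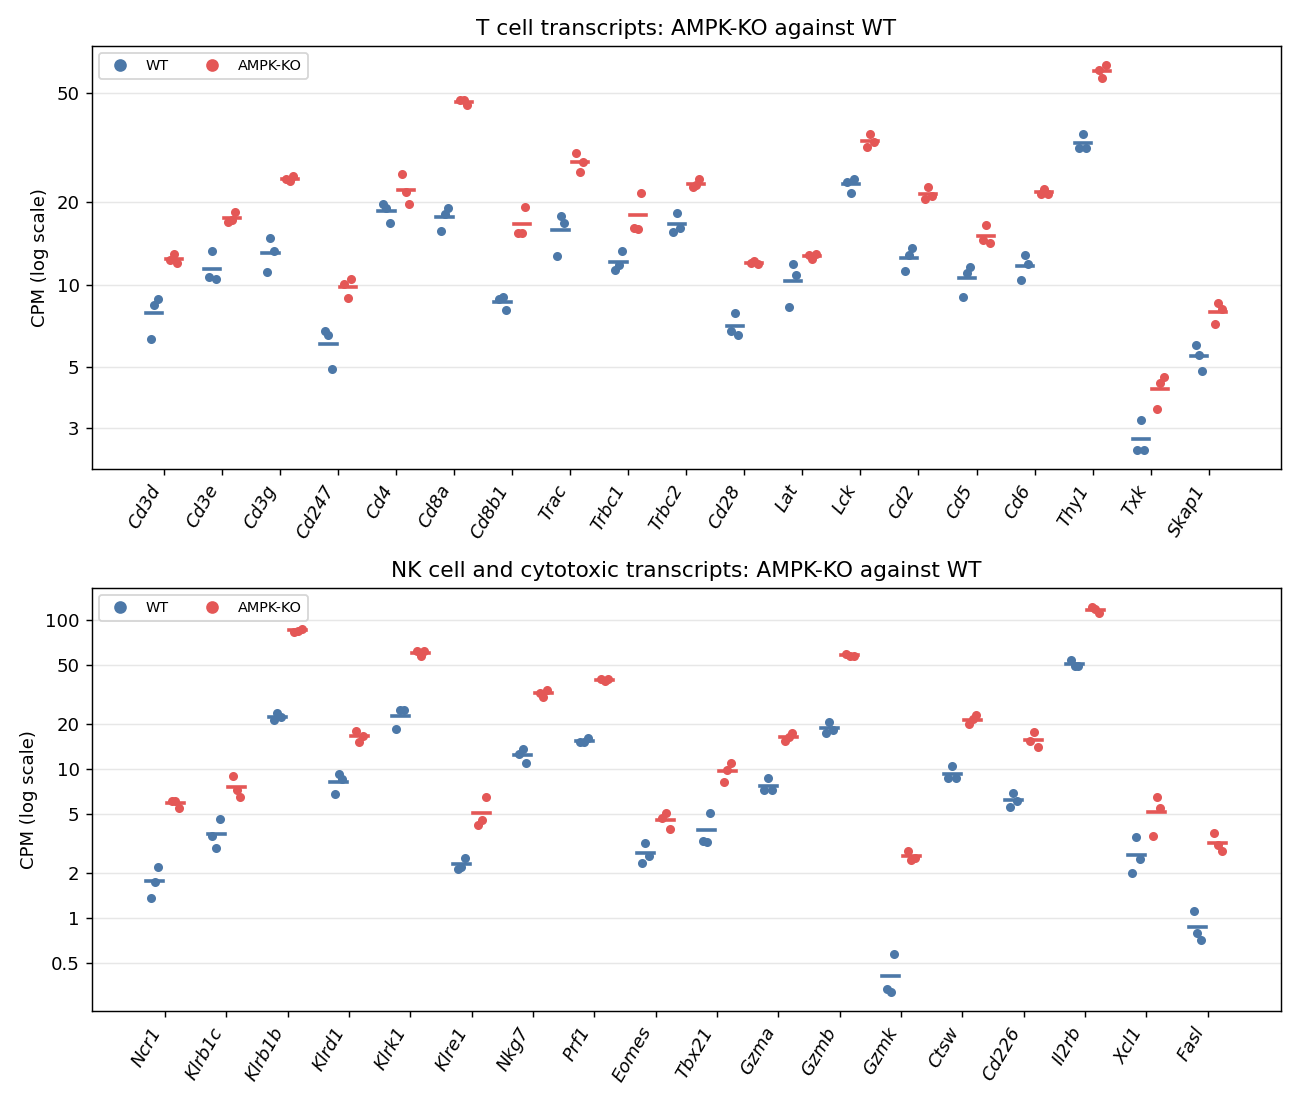
CPM on a log scale of each T cell transcript (top) and each NK cell and cytotoxic transcript (bottom) in 3 WT and 3 AMPK-KO samples; points are samples and lines are group means. Every gene other than Cd4 had its AMPK-KO samples above its WT samples.

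All 18 NK cell and cytotoxic genes were higher in AMPK-KO at an adjusted p under 0.05, beside the 11.3% of all genes tested, and 16 of them by a log2 fold change above 1, beside 2.05%. Their median log2 fold change was 1.34, with a range from 0.75 to 2.66. None of the 18 overlapped between the groups, as held for 18.8% of all genes in the higher direction. The exceptions to the fold were Eomes and Xcl1.

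All NK cell receptor genes among the 18 were higher in AMPK-KO. Klrb1b, an inhibitory lectin-like receptor that binds Clec2d (ENSMUSG00000079298.9, chr6:128813706-128826331, minus strand, GRCm38), was at 21.5, 23.8 and 22.2 CPM in WT and at 83.9, 84.5 and 87.8 CPM in AMPK-KO. Its log2 fold change of 1.92 ± 0.06 had the smallest adjusted p of the 37 genes, 4.3e-08. Klrb1c, which encodes NK1.1, was at 3.54, 2.94 and 4.62 CPM in WT and at 9.03, 7.24 and 6.48 CPM in AMPK-KO, a log2 fold change of 1.03 ± 0.19 (adjusted p = 3.5e-03). The Klrb1b to Klrb1c ratio per kilobase was between 6.39 and 10.8 in WT and between 12.4 and 18.02 in AMPK-KO, with no overlap. These neighbours share 25.4% and 12.6% of their stretches of 100 bases with other annotated transcripts, chiefly Gm44511, which spans both and was listed at 0 in every library, and none with each other. Ncr1, which encodes the NK cell receptor NKp46, was at 1.37, 1.76 and 2.20 CPM in WT and at 6.14, 6.07 and 5.45 CPM in AMPK-KO, a log2 fold change of 1.73 ± 0.19 (adjusted p = 1.3e-04).

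Klrk1, which encodes the activating receptor NKG2D of NK and CD8 T cells, was at 18.7, 25.0 and 24.8 CPM in WT and at 62.1, 57.7 and 62.2 CPM in AMPK-KO, a log2 fold change of 1.41 ± 0.10 (adjusted p = 7.8e-06). Il2rb, the beta chain of the receptors for interleukin 2 and interleukin 15, was at 54.2, 49.2 and 49.5 CPM in WT and at 122, 119.5 and 111 CPM in AMPK-KO. It rose by 1.21 ± 0.06 on the log2 scale (adjusted p = 7.7e-07). The receptor genes Klrd1, which encodes CD94, Klre1 and Cd226, a receptor for the nectin family ligand Pvr, rose by 1.02, 1.15 and 1.35 on the log2 scale. Taking all of these receptors, WT and AMPK-KO samples were apart in each.

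Genes of the cytotoxic granule rose alike in direction but not in size. Gzmb, the granzyme that cleaves caspases (ENSMUSG00000015437.5, chr14:56258838-56262260, minus strand), was at 17.5, 20.6 and 18.3 CPM in WT and at 59.5, 57.4 and 57.5 CPM in AMPK-KO, a log2 fold change of 1.63 ± 0.08 (adjusted p = 3.9e-07). Prf1, which encodes the pore-forming perforin, was at 15.2, 15.2 and 16.1 CPM in WT and at 40.2, 39.1 and 40.5 CPM in AMPK-KO, a log2 fold change of 1.37 ± 0.07 (adjusted p = 7.3e-07). Nkg7, a granule membrane protein, was at 12.6, 13.6 and 10.9 CPM in WT and at 32.6, 30.7 and 34.1 CPM in AMPK-KO, a log2 fold change of 1.39 ± 0.10 (adjusted p = 5.4e-06). No sample of 1 group reached into the other for these genes. Gzma, a granzyme of tryptase type, rose by 1.09 and Ctsw, a lymphocyte cathepsin, by 1.21 on the log2 scale. The Gzma to Gzmb ratio per kilobase was accordingly lower in AMPK-KO (0.372 to 0.436) than in WT (0.567 to 0.605), with no overlap. Gzmk, a granzyme of memory-like CD8 T cells among others, had the largest fold of the 37 genes, 6.30, but from a WT mean of 0.409 ± 0.145 CPM to 2.60 ± 0.205 CPM, and its log2 fold change of 2.66 had an SE of 0.30.

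The remaining members are regulators and secreted or surface effectors. Tbx21 and Eomes encode the T-box factors of cytotoxic lymphocytes and rose by 1.32 and 0.75 on the log2 scale. Fasl, the death receptor ligand, rose by 1.88 from 0.875 ± 0.219 to 3.21 ± 0.486 CPM. Xcl1, the chemokine that attracts Xcr1-bearing dendritic cells, rose by 0.96 from 2.66 ± 0.776 to 5.20 ± 1.50 CPM. The calls for Xcl1 and Eomes were lost when any of 4 and any of 3 libraries, respectively, was left out in turn.

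The promoters of 3 granule genes and of Cd3e are shown because these genes were all higher in AMPK-KO, while with stage, as given further on, the granule genes were lower and Cd3e did not pass the test. RefSeq held windows of 300 bases around its own annotated transcription starts for 23 of the 37 genes (GRCm38.p6), with several windows for some genes. The Gzmb window lies wholly upstream of the Gzmb gene as GENCODE M21 places it, while the other windows shown span the GENCODE start. Capitals mark matches on either strand to the T-box word TCACAC, the RUNX word TGTGGT or the ETS word GGAAGT, chosen after several words had been tried with the results known. Among all 32851 promoters 14.5%, 16.8% and 23.8% held these words. Of the 14 NK cell and cytotoxic genes with a promoter 6, 9 and 7 did, and of the 9 T cell genes 2, 3 and 6. A gene counted if any of its promoters held the word, while the shares are over single promoters, so the measures are unlike. No matches overlapped in the promoters of the 23 genes. A match is a run of letters, not a binding site.
Gzma, chr13:113100932-113101231, minus strand: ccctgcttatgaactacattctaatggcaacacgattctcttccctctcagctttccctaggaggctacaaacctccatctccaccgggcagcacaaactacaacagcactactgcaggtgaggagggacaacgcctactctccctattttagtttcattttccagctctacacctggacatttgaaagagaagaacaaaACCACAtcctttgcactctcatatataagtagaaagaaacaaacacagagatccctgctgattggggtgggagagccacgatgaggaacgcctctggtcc
Gzmb, chr14:56262285-56262584, minus strand: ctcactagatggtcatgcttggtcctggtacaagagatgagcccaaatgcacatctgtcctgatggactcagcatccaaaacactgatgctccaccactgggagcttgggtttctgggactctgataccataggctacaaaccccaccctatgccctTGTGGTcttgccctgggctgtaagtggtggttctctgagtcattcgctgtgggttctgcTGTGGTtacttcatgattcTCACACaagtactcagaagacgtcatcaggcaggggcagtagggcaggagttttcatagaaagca
Prf1, chr10:61297586-61297885, plus strand: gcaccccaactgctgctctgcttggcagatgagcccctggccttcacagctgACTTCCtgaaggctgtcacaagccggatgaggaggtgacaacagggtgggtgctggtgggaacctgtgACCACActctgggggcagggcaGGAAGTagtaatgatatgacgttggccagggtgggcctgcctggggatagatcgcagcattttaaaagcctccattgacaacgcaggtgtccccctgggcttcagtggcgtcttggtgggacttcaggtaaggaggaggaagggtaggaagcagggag
Cd3e, chr9:45009562-45009861, minus strand: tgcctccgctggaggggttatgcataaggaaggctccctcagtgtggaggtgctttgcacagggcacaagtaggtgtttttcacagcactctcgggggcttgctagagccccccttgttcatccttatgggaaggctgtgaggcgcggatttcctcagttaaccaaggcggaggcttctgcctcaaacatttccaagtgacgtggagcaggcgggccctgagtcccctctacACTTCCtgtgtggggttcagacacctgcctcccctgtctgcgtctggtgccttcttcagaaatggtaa
The Gzma window held a single match and the Gzmb window 3.

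In late-stage against early-stage TAMs, 9 of the 19 T cell genes were higher and none was lower, where 4.31% of the 17630 genes tested were higher and 4.88% lower. The 9 were Cd8a, Trac, Trbc1, Trbc2, Lat, Lck, Cd2, Cd5 and Cd6, none of them beyond a log2 fold change of 1, as 0.601% of all genes tested were. The median log2 fold change of the 19 was 0.43, against 0.00 over all genes, and the groups of 14 did not overlap with late-stage the higher, as held for 15.6% of all genes. The count of 9 changed with single libraries. It was 3 without late-stage replicate 2 and 2 without late-stage replicate 3. Dropping replicate 2 of the early-stage group gave 2, and dropping its replicate 1 gave 11. Over all genes, 759 were higher with every library in. In these runs, in the same order, 284, 284, 301 and 1514 were. The median log2 fold change of the 19 stayed between 0.36 and 0.46 as libraries were left out. The member count was 4, and that over all genes 429, when every gene with at least 1 count was tested.

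The T cell genes with the smallest adjusted p were surface receptor and signaling genes. Cd5 was at 14.9, 14.8 and 13.9 CPM in early-stage and at 22.5, 24.6 and 23.4 CPM in late-stage samples, a log2 fold change of 0.69 ± 0.10 (adjusted p = 2.1e-03). Cd6 was at 19.6, 19.2 and 18 CPM early and at 28.0, 34.0 and 34.2 CPM late, a log2 fold change of 0.76 ± 0.11 (adjusted p = 2.2e-03). Lck was at 37.8, 33.6 and 31.6 CPM early and at 46.6, 51.2 and 49.1 CPM late, a log2 fold change of 0.51 ± 0.09 (adjusted p = 8.2e-03). All late-stage values of these genes were above all early-stage values. Lat, which had not passed the test between AMPK-KO and WT, was at 16.4, 13.5 and 9.01 CPM early and at 25.2, 24.1 and 27.3 CPM late, a log2 fold change of 0.98 ± 0.19 (adjusted p = 0.0112). The early-stage samples of Lat were spread widely, and the late-stage samples lay above all of them.

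The constant region and CD8 genes were also raised. Trac was at 27.7, 27.6 and 26.0 CPM early and at 32.3, 42.7 and 38.8 CPM late, a log2 fold change of 0.49 ± 0.11 (adjusted p = 0.0261). Cd8a was at 26.4, 25.8 and 27.1 CPM early and at 31.8, 35.9 and 36.4 CPM late, a log2 fold change of 0.39 ± 0.09 (adjusted p = 0.0273). These groups did not overlap, with the lowest late-stage value in replicate 1 for both. Trbc1, Trbc2 and Cd2 rose by 0.39, 0.44 and 0.43 on the log2 scale. Cd3e was at 19.9, 18.9 and 15.5 CPM early and at 22.9, 27.1 and 23.8 CPM late, which did not pass the test (log2 fold change 0.44 ± 0.12, adjusted p = 0.0547). Cd4 was at 22.96, 22.5 and 25.2 CPM early and at 27.0, 32.1 and 29.3 CPM late, also without passing (0.32 ± 0.10, adjusted p = 0.0802). Neither Cd3e nor Cd4 overlapped between the stages. Of the others that did not pass, Cd3d, Cd8b1, Thy1, Cd247, Cd3g and Skap1 had log2 fold changes between 0.08 and 0.52, and Cd28 and Txk of -0.02 and -0.17.

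Of the 18 NK cell and cytotoxic genes, 9 were lower in late-stage TAMs and none was higher, where 4.88% and 4.31% of the genes tested were. Of these, 4 passed a log2 fold change of -1 (Gzma, Cd226, Klrb1c and Ncr1), as 1.26% of all genes did. The median log2 fold change was -0.69, all 18 values were negative, and in 13 genes the late-stage samples lay below every early-stage sample, as in 15.6% of all genes. With all 18 negative, no NK cell and cytotoxic gene could be called higher in edgeR at any cutoff. Of the T cell genes, 2 had negative values with stage, Cd28 and Txk (unadjusted p = 0.902 and 0.393 in edgeR). Counts of T cell genes lower and of NK cell and cytotoxic genes higher were also 0 by DESeq2 and limma voom.

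Gzma (ENSMUSG00000023132.8, chr13:113093825-113100981, minus strand) changed most. It was at 28.9, 29.7 and 29.2 CPM in early-stage and at 6.19, 9.55 and 9.73 CPM in late-stage samples, a 3.45-fold fall, with a log2 fold change of -1.79 ± 0.16 and an adjusted p of 2.0e-04. Gzmb was at 46.5, 44.0 and 43.2 CPM early and at 24.2, 26.3 and 29.3 CPM late, a log2 fold change of -0.75 ± 0.10 (adjusted p = 1.3e-03). The Gzma to Gzmb ratio per kilobase thus went from between 0.889 and 0.966 to between 0.366 and 0.518, without overlap. Prf1 was at 31.7, 32.5 and 35.5 CPM early and at 19.4, 26.6 and 25.1 CPM late, a log2 fold change of -0.49 ± 0.12 (adjusted p = 0.0395). Its groups did not overlap, but its call was lost when any of 5 of the 6 libraries was left out in turn.

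Receptor genes of NK cells fell as well. Cd226 was at 15.5, 15.5 and 18.7 CPM early and at 7.37, 7.68 and 7.01 CPM late, a log2 fold change of -1.17 ± 0.12 (adjusted p = 4.4e-04). Klrb1b was at 35.7, 35.9 and 42.0 CPM early and at 21.6, 19.8 and 22.6 CPM late, a log2 fold change of -0.83 ± 0.10 (adjusted p = 1.1e-03). Klrk1 was at 38.2, 40.7 and 42.0 CPM early and at 24.8, 25.8 and 24.6 CPM late, a log2 fold change of -0.68 ± 0.09 (adjusted p = 1.1e-03). Each of them was lower in every late-stage sample than in any early-stage sample. Klrb1c was at 8.97, 9.67 and 12.5 CPM early and at 4.06, 5.55 and 4.87 CPM late, a log2 fold change of -1.11 ± 0.17 (adjusted p = 4.2e-03). Ncr1 was at 5.94, 5.17 and 7.12 CPM early and at 2.23, 3.04 and 3.52 CPM late, a log2 fold change of -1.05 ± 0.21 (adjusted p = 0.0144). These groups were apart too, and Klrd1 fell by 0.75 on the log2 scale.

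The genes that did not pass the test were mixed in size. Tbx21, Eomes, Klre1, Fasl, Xcl1 and Gzmk had log2 fold changes between -0.72 and -0.45 with adjusted p between 0.0516 and 0.381. Nkg7, Il2rb and Ctsw, at 22.96, 88.4 and 12.7 CPM in the late-stage mean, had values of -0.04, -0.09 and -0.19, and their groups overlapped.

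**Figure D3:**
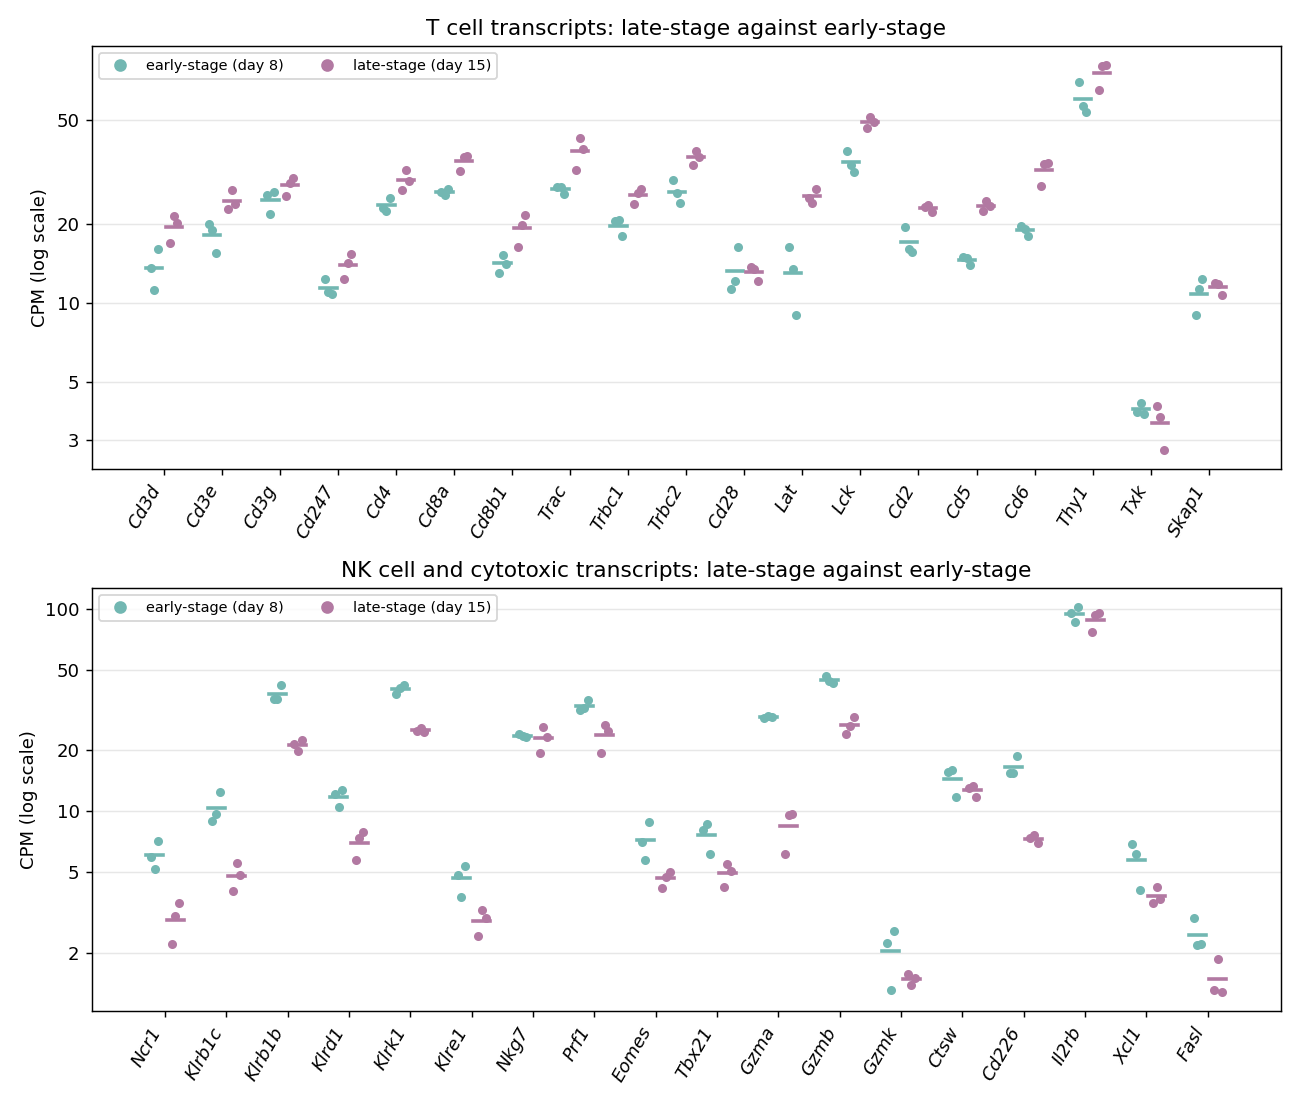
CPM on a log scale of each T cell transcript (top) and each NK cell and cytotoxic transcript (bottom) in 3 early-stage and 3 late-stage samples; points are samples and lines are group means. Late-stage samples were the higher for 14 T cell genes and the lower for 13 NK cell and cytotoxic genes without overlap.

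The AMPK-KO change and the stage change were then set against each other in a single edgeR fit of all 12 libraries, which share no samples between the comparisons. The difference passed an adjusted p under 0.05 for all 18 NK cell and cytotoxic genes, with the AMPK-KO change above the stage change in each, where 12.6% of the 19073 genes tested passed in either direction and 6.87% in this one. Their median difference was 2.03 on the log2 scale, with a range from 1.31 for Il2rb to 3.12 for Gzmk. Of the 19 T cell genes, 4 passed, all with the AMPK-KO change the greater: Cd8a by 1.02 ± 0.12 (SE), Cd28 by 0.79 ± 0.19, Cd3g by 0.72 ± 0.16 and Thy1 by 0.55 ± 0.15. Over the 19 the median difference was 0.35. Lat had the most negative difference, -0.67 ± 0.25, which did not pass (adjusted p = 0.0949). The tables were prepared separately, so the comparison of the changes also holds whatever else differed between the experiments.

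**Figure D4:**
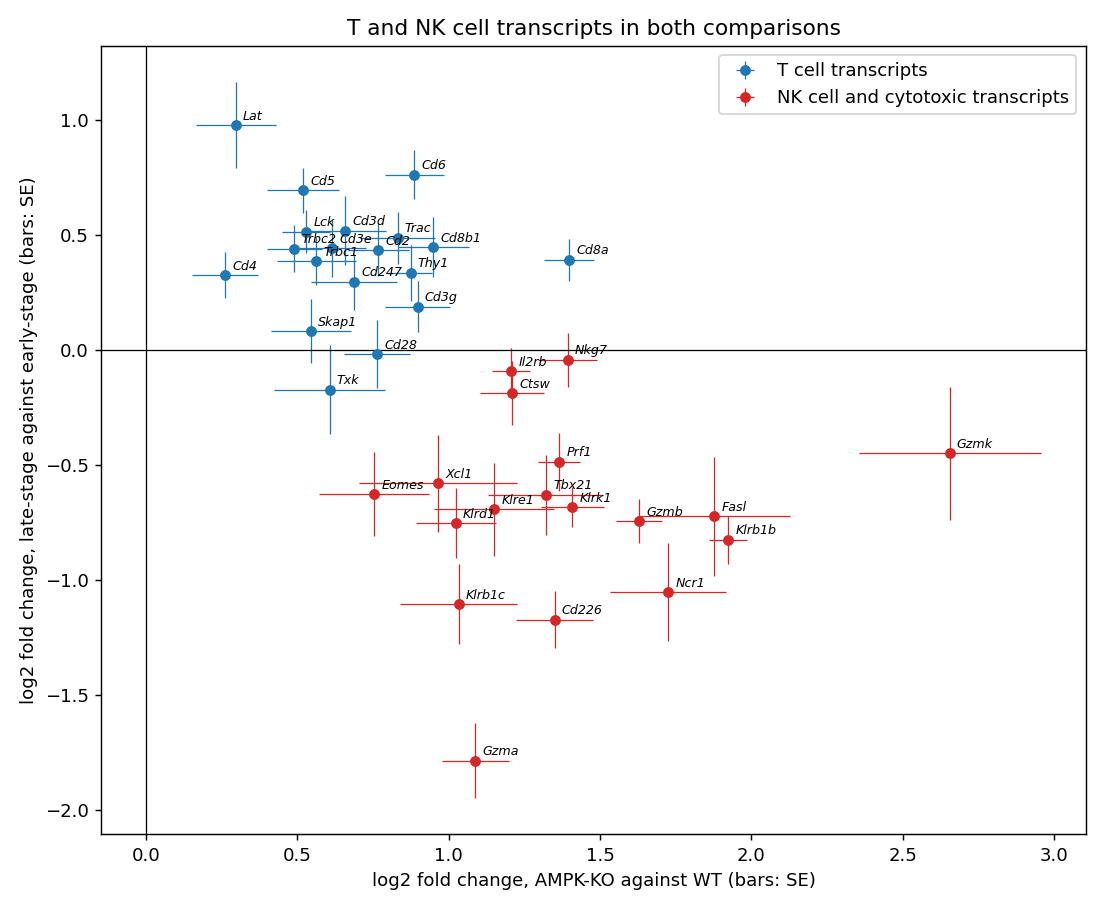
Log2 fold change of each of the 37 genes in AMPK-KO against WT (horizontal) and in late-stage against early-stage TAMs (vertical), with bars of 1 SE. All 37 genes lay to the right of 0, the NK cell and cytotoxic genes lay below 0, and all T cell genes other than Cd28 and Txk lay above 0.

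Further genes of the same cells, in lists that hold no member, were read the same way. Beside the counts here and in the lists below, 11.3% of all genes tested were higher and 9.78% lower in AMPK-KO. With stage 4.31% were higher and 4.88% lower. Of 29 other T cell genes tested, 22 were higher and 2 lower in AMPK-KO, with a median log2 fold change of 0.75. Cxcr6, a homing receptor of tissue T and NK cells, was at 7.27 ± 0.547 CPM in WT and 23.9 ± 1.53 CPM in AMPK-KO (log2 fold change 1.71). Lag3, an inhibitory receptor that binds MHC class II, rose by 1.67. The 2 lower genes were Tcf7 and Lef1, factors of naive and memory-like T cells, named here after their values were seen. With stage, 10 of the 29 were higher and 1 lower, with a median of 0.41, and among the higher genes were the regulatory T cell factor Foxp3 (1.14, from 10.03 ± 0.950 to 22.1 ± 1.51 CPM) and the inhibitory receptor Ctla4 (0.76).

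Of 30 other NK genes tested, 22 were higher and none lower in AMPK-KO, with a median log2 fold change of 1.09. Klrc1, which encodes the inhibitory receptor NKG2A that pairs with CD94, rose by 1.59, the adaptor Sh2d1b1 by 1.13 and the interleukin 18 receptor gene Il18r1 by 1.17. With stage, 3 were higher and 9 lower, with a median of -0.68. Klra4, of the Ly49 receptor family, fell by 2.29 on the log2 scale, from 4.65 ± 1.22 to 0.948 ± 0.197 CPM. Sh2d1b1 and the granzyme gene Gzmd went the other way, by 1.04 and 1.19, so this list was not of a single direction.

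Ligands and partners of the receptors were also followed. In AMPK-KO 16 of 27 tested were higher and 3 lower, and the smallest adjusted p belonged to the MHC class II genes H2-Aa, H2-Ab1 and H2-Eb1, which rose by 1.39, 1.42 and 1.46 on the log2 scale. With stage 1 of the 27 was higher (3.7%, near the 4.31% of all genes tested) and 6 were lower (22.2%, against 4.88%). The smallest adjusted p belonged to H2-Aa (-0.55), Cd80 (-0.67), which encodes a ligand of CD28, and B2m (-0.29), the light chain of MHC class I.

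Markers of other cells did not share a single direction between WT and AMPK-KO. Over all genes tested 11.3% were higher and 9.78% lower in AMPK-KO. Macrophage markers summed to between 15103 and 16297 CPM in WT and between 15079.6 and 15259.7 CPM in AMPK-KO. Of the 12, 3 were higher (Ptprc, Itgam and Csf1r) and 2 lower (Cd68 and Mrc1). Ptprc encodes CD45, which the sort gate used and which is not particular to macrophages. Dendritic cell markers summed to between 515 and 523 CPM in WT and between 792 and 820.0 CPM in AMPK-KO, with 9 of 11 higher, among them Itgax (1.10), Batf3 (1.12) and Cd209a (0.76). Of the B cell markers 9 of 12 were lower in AMPK-KO. Cd79a, part of the B cell receptor, went from 5.13 ± 0.610 to 0.106 ± 0.0155 CPM and Ighd from 7.34 ± 0.463 to 0.869 ± 0.265 CPM, while the other 2 called genes, Ighm and Cd79b, were higher. The B cell sum, which Ighm leads, was between 188 and 196 CPM in WT and between 219 and 223 CPM in AMPK-KO. The T and NK cell transcripts were thus higher in libraries in which most B cell markers were lower.

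Neutrophil markers summed to between 111 and 119 CPM in WT and between 183 and 185 CPM in AMPK-KO. Most of this sum was Csf3r in both groups. Of 6 tested 4 were higher, and Ly6g was at 0. Basophil and mast cell markers summed to between 1.33 and 1.63 CPM in WT and between 2.03 and 3.21 CPM in AMPK-KO, with Cd200r3 higher of 2 tested. Melanoma markers fell in AMPK-KO (6 of 7 lower, sums of 998 to 999 against 676 to 716 CPM, with Tyrp1 at -0.74, Dct at -0.49 and Pmel at -0.42). Fibroblast and endothelial markers rose for 7 of 8 (sums of 623 to 673 against 859 to 938 CPM). Among them Pecam1 rose by 1.28, Kdr by 0.96 and Col3a1 by 0.41 on the log2 scale. The 1 lower was the endothelial gene Cdh5, from a mean of 3.74 CPM in WT to 2.53 CPM in AMPK-KO (-0.56). The part of these cells in the differences of the T and NK cell transcripts was not tested.

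With stage, macrophage markers summed to between 11690.1 and 13761 CPM early and between 14160.2 and 14203 CPM late, with 1 of 12 higher (C1qa) and 2 lower (Mrc1 and Cd14). Over all genes tested 4.31% were higher and 4.88% lower with stage. B cell markers rose with the T cell transcripts, 6 of 12 higher and none lower, from sums of 202 to 219.9 CPM to sums of 307 to 394 CPM, among them Ighm (0.97) and Cd79b (0.87). Dendritic cell markers summed to between 569.5 and 614 CPM early and between 649.5 and 660.5 CPM late, with Itgax and Ccr7 higher and Cd209a lower of 11. Melanoma markers fell for 5 of 7 (1663 to 1807 against 767 to 1203 CPM, with Mitf at -0.86) and fibroblast and endothelial markers for 4 of 8 (886 to 959 against 468 to 631 CPM, with Col1a2 at -0.81). Neutrophil markers summed to between 121 and 128 CPM early and between 104 and 109 CPM late, with S100a8 and S100a9 lower of 5 tested, and the basophil and mast cell sum stayed between 1.16 and 2.21 CPM with no call of 2. The part of these cells in the stage differences was not tested either.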

How the data were processed

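TAM RNA was sequenced on Illumina NovaSeq. The authors mapped reads with HISAT2 and deposited raw counts per gene from featureCounts, in 1 table per comparison. The processing notes name mm10 and GRCm38, the methods GRCh38, and tool versions, strand and multiply mapped reads are not given in the sources used here. The members and lists were chosen with earlier results of these data known.

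Libraries held 71019494 to 84470374 counts. Each table was fitted on its own, without covariates, after filterByExpr and TMM, by edgeR 4.0.16 (quasi-likelihood F-test) in R 4.3.3, and p-values were adjusted by Benjamini-Hochberg over all genes tested. CPM used TMM-scaled library sizes. The difference of the comparisons was a contrast in a fit of all 12 libraries. The code was tested on simulated data. Lengths and positions came from GENCODE M21, which held every member's identifier with its version. All 37 members are named. Samples are given in full for the 6 tested members of each group with the smallest adjusted p in each comparison and for Cd3e, Trac, Cd8a, Cd4, Ncr1, Klrb1c, Prf1 and Gzmb, and for other lists the 3 genes with the smallest adjusted p (others named there complete a count and were chosen after their values were seen). The values of 2 of these genes are not reported here. An exact permutation test of 3 against 3 cannot go below 0.1 and was not used. Alternatives were other scaling factors, DESeq2 1.42.0, limma 3.58.1 voom, other filters, a fold threshold, a replicate block and each library left out.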

Additional observations from a re-analysis of the deposited data

How the results depend on the processing

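In AMPK-KO against WT, T cell genes higher numbered between 14 and 17 as each library was left out. NK cell and cytotoxic genes higher numbered between 16 and 18. Over all genes, those higher numbered between 1334 and 2102 in these runs, against 1978 with every library. With an absolute log2 fold change above 1 as well, the T cell count was 1. Late-stage T cell genes higher numbered 4 with every gene of at least 1 count tested, between 2 and 11 as libraries were left out, and 0 with the fold threshold, and the NK cell and cytotoxic genes lower numbered 4 with the fold threshold and between 6 and 10 as libraries were left out. Other settings raised the member counts: 13 T cell genes higher and 12 NK cell and cytotoxic genes lower by DESeq2, and 12 and 10 with at least 10 counts required in every library. The calls over all genes in that comparison also varied, between 653 and 2835 with a library left out against 1619, 936 with every gene tested and 2650 by DESeq2. By DESeq2 7 T cell genes differed between the comparisons, and between 3 and 6 as libraries were left out, while the NK cell and cytotoxic count stayed at 18 in every leave-one-out. Directions reversed in late-stage against early-stage for genes that did not pass the test. As libraries were left out, Skap1 ranged from -0.037 (without early-stage replicate 1) to 0.18, Cd28 from -0.12 to 0.16 (without early-stage replicate 3, and 0.03 without late-stage replicate 3), and Nkg7 from -0.15 to 0.062 (without late-stage replicate 1) in log2 fold change. The cause was not tested. Deviations of same-numbered samples from their group means had correlations from -0.03 to 0.22 and from -0.01 to 0.07. In each comparison 3 of 6 samples correlated best with their own number. With 3 samples per group this check cannot decide whether the numbers pair the samples. With a replicate block, 6 late-stage T cell genes were higher and 9 NK cell and cytotoxic genes lower, and the AMPK-KO counts were 17 and 18. RLE and upper-quartile factors left every member's direction as it was. Intervals cover the spread between samples only.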
